A study of Mus musculus with 64 samples.

Results

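Active cells in which Foxp3 had been switched back on 14 or 28 days earlier were compared with active Treg cells that had never lacked Foxp3, to measure what remained unlike Treg cells. The comparison rests on 6 of the 64 bulk RNA-seq libraries of the series, 4 of restored cells (day 14 and day 28, 2 replicates each) and 2 of Treg cells, chosen by their titles. Restored cells had more of Th17 genes than the Treg cells, Il23r, Il1r1 and Ccl20 among them. They had less of Ikzf2, Nrp1, Lrrc32, Itgb8 and other Treg signature genes. They also had more Gzmb, Lgmn and Marcks than Treg cells or their Foxp3-negative counterparts.

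The restored cells came from spleen and lymph nodes of Foxp3-LSL mice with CD4-CreERT2 (genotype label Foxp3-LSLCD4-CreERT2), treated with 4-hydroxytamoxifen (4-OHT). In these mice a loxP-flanked Thy1.1 reporter and STOP cassette keeps Foxp3 off, and a cell that transcribes the locus without making Foxp3 protein is called a Treg wannabe cell. A single 4-OHT dose lets CreERT2, driven by Cd4, cut out the cassette, after which Foxp3 and GFP are made and plusFoxp3 cells are sorted as GFP+. The minusFoxp3 cells used here beside them came from mice of the genotype Foxp3-LSLCD4-WT, which have no CreERT2. These cells were sorted as GFP- Thy1.1+ the same number of days after 4-OHT. The comparison Treg cells (GFP Treg) came from untreated mice of the genotype Foxp3GFP. The methods of the study describe the Foxp3-LSL mice as heterozygous females, which also hold Treg cells with an intact Foxp3 gene. The study gives a general age range for its mice, neonates included, and no age for each of these groups, and the sex of the Foxp3GFP mice is not given in the sources used here. Restoration, 4-OHT, the LSL allele, CreERT2 and the time since treatment all differ between the restored and GFP Treg groups and cannot be told apart in this contrast.

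Foxp3 is the transcription factor that defines Treg cells, which restrain other T cells through surface receptors such as CTLA-4, through the high-affinity IL-2 receptor, and through IL-10 and TGF-beta. Th17 cells are helper T cells known for the cytokines IL-17A and IL-17F and for the receptor of IL-23. Active, or effector, Treg cells have met antigen and carry receptors for tissue chemokines.

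The 6 libraries held 40813000 to 52672579 counted read pairs, and the 22 active libraries that shared one fit held 40813000 to 57419138. Levels are CPM, which are counts divided by the library total and scaled to one common total. They are listed for restored cells in the order day 14 replicates 1 and 2, day 28 replicates 1 and 2, and for GFP Treg cells in the order replicates 1 and 2. Fold changes are log2 fold changes from edgeR that average the day 14 and day 28 differences, so they can deviate from a ratio of mean CPM. The adjusted p is the Benjamini-Hochberg value of the edgeR quasi-likelihood test over all genes tested, and a gene was called under 0.05. The study describes its replicates as independent biological ones, while the labels do not tie libraries to animals, so a p-value measures the spread between these libraries. In bulk RNA, fewer cells of a type and less RNA per cell cannot be told apart.

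Foxp3 itself (chromosome X, 7439883 to 7461484, GRCm39) was back at a high level in restored cells. It was at 505, 535, 594 and 592 CPM in restored cells and at 734 and 817 CPM in GFP Treg cells, against 44.3 to 58.3 CPM in the 4 minusFoxp3 libraries of days 14 and 28. The restored libraries all lay below both GFP Treg libraries and far above the minusFoxp3 libraries. The log2 fold change against GFP Treg cells was -0.48 (SE 0.17, adjusted p = 0.131 by edgeR), and it was 3.45 (SE 0.15) against minusFoxp3 cells. With only the 6 libraries compared in the fit, the difference from GFP Treg cells was called, with an edgeR adjusted p of 0.0373. Thy1, whose count includes reads of the Thy1.1 reporter where they map to the gene, was at 126, 98.2, 128 and 90.2 CPM in restored cells. GFP Treg cells had 36.4 and 62.7 CPM and minusFoxp3 cells 386 to 425 CPM. Its log2 fold change of 1.16 (edgeR adjusted p = 0.00332) lost its call without GFP Treg replicate 1, with an edgeR adjusted p of 0.0945.

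Other lineages were checked through their markers. The summed level of 10 CD4 T cell markers was 11350 to 12540 CPM in restored and 11470 to 12000 CPM in GFP Treg libraries. Xist was at 246 to 343 CPM in these 6 libraries. Markers of erythroid cells, platelets, neutrophils, dendritic cells, CD8 T and NK cells and stromal cells gave no call by edgeR, and DESeq2 called 1 of the 6 dendritic cell markers higher. Among 3 plasma cell markers tested, Sdc1, which encodes the surface proteoglycan syndecan-1, was higher and kept. It was at 3.33, 1.81, 1.73 and 2.09 CPM in restored, 0.551 and 0.458 CPM in GFP Treg and 13.0 to 17.9 CPM in minusFoxp3 cells, a log2 fold change against GFP Treg cells of 2.12 (SE 0.34, adjusted p = 0.00118 by edgeR).

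Of 20776 genes tested, 1050 were called (5.05%), 581 higher and 469 lower in restored cells, and 3391 had an unadjusted p under 0.05. All 6 libraries contributed, but unequally. The fit without GFP Treg replicate 1 called 338 genes, 245 higher and 93 lower, and the fits without any other single library called up to 1111. A total of 264 genes, 196 higher and 68 lower, were called in each of the 6 fits that leave out 1 library, and they are described as kept below. Fitted on the 6 libraries alone, the split was 442 higher and 536 lower, and without the filter on low counts it was 915 higher and 1200 lower. The plot of fold change against level shows the calls in both directions over the whole range of levels.

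**Figure D1:**
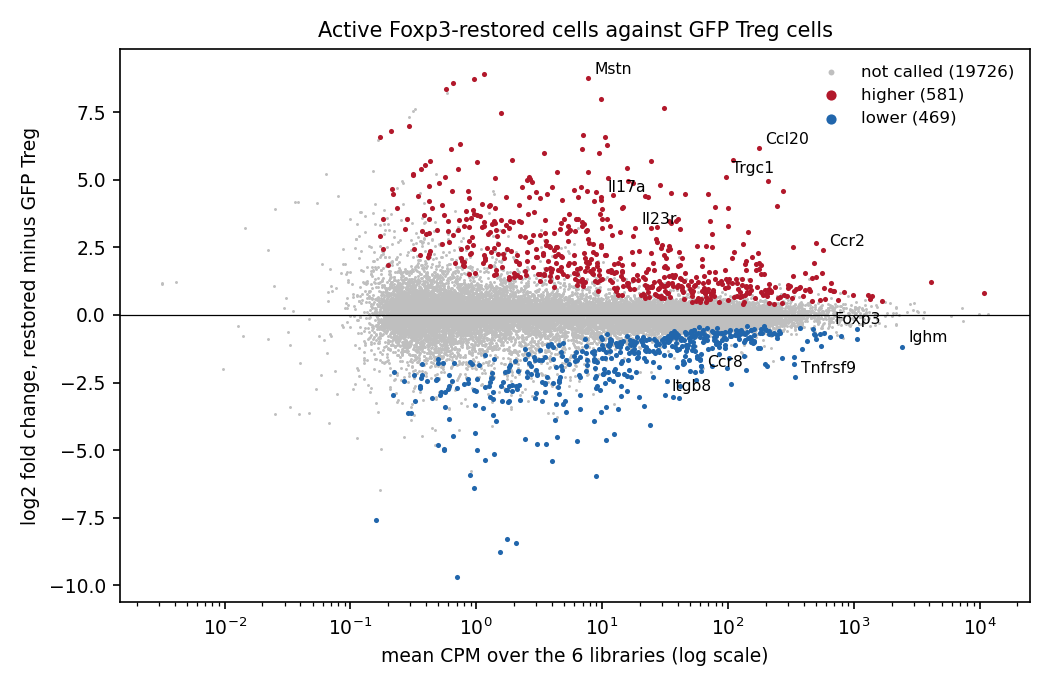
Each point is 1 gene, with the mean CPM over the 6 libraries on a log axis and the log2 fold change of restored minus GFP Treg cells on the vertical axis. The 581 genes called higher are red, the 469 called lower are blue, and Mstn, Ccl20 and Il17a stand above 4 while Foxp3 lies among the grey genes that were not called.

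Th17 genes were the group with the largest share of calls. Of 11 listed genes tested, 10 were higher in restored cells and none lower, beside 2.8% of all genes tested called higher. This list and those below were chosen with earlier results of these data known, so their shares of calls are a description. Among them were Il17a, Il17f, Il23r, Il1r1, Ccr6, Ccl20, Il17re, Tmem176a and Tmem176b, and 9 of the 10, without Il17f, were kept. The median log2 fold change of the list was 3.47, against -6e-04 over all genes tested. In minusFoxp3 cells the list's median against the same GFP Treg libraries was 4.68.

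The cytokine receptors of the Th17 programme were well above their level in GFP Treg cells. Il23r, the receptor subunit through which IL-23 maintains Th17 cells, was at 29.3, 22.6, 31.0 and 20.9 CPM in restored and 2.62 and 2.93 CPM in GFP Treg cells. Il1r1, the IL-1 receptor, was at 44.5, 74.5, 26.4 and 49.6 CPM against 3.87 and 4.70 CPM. Neither receptor's groups overlapped, and their log2 fold changes were 3.22 and 3.47, with edgeR adjusted p of 6.81e-06 and 5.59e-06.

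The IL-17 cytokines behaved differently in level. Il17a (chromosome 1, 20801129 to 20804720) was at 29.9, 19.6, 2.24 and 6.06 CPM in restored and 0.646 and 0.312 CPM in GFP Treg cells, while minusFoxp3 cells had 313 to 522 CPM. Thus restored cells had lost most of the Il17a of minusFoxp3 cells but still lay above GFP Treg cells in all 4 libraries, by a log2 fold change of 4.38 (SE 0.43, adjusted p = 9.95e-06 by edgeR). Il17f was at 7.03, 1.39, 1.29 and 1.07 CPM against 0.0949 and 0.312 CPM. Its log2 fold change was 3.46 (edgeR adjusted p = 0.00871), and the call was lost without GFP Treg replicate 1. Before treatment, cells of the CreERT2 genotype had 203 and 273 CPM of Il17a and cells without CreERT2 had 553 and 508 CPM. Il22 was at 1.03 CPM or less in each of the 6 libraries and was not called.

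Of the listed Th17 genes, Ccl20 had the largest log2 fold change. Ccl20 (chromosome 1, 83094487 to 83096888), the ligand of Ccr6, was at 423, 328, 144 and 154 CPM in restored and 4.84 and 1.62 CPM in GFP Treg cells. The log2 fold change was 6.19 (SE 0.46, adjusted p = 6.56e-07 by edgeR), and the minusFoxp3 level was 414 to 689 CPM. Ccl20 was lower in restored than in minusFoxp3 cells, by a log2 fold change of -1.22 (edgeR adjusted p = 0.0141). Ccr6 itself was at 83.9, 61.2, 41.0 and 49.1 CPM against 17.1 and 22.2 CPM, a log2 fold change of 1.54 (edgeR adjusted p = 0.000256). Tmem176a and Tmem176b, membrane proteins, varied more among restored libraries. Tmem176b was at 464, 307, 668 and 176 CPM against 12.7 and 21.2 CPM, and Il17re, a receptor subunit for IL-17C, followed the same order of libraries, with 52.6, 16.7, 87.7 and 13.8 CPM.

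**Figure D2:**
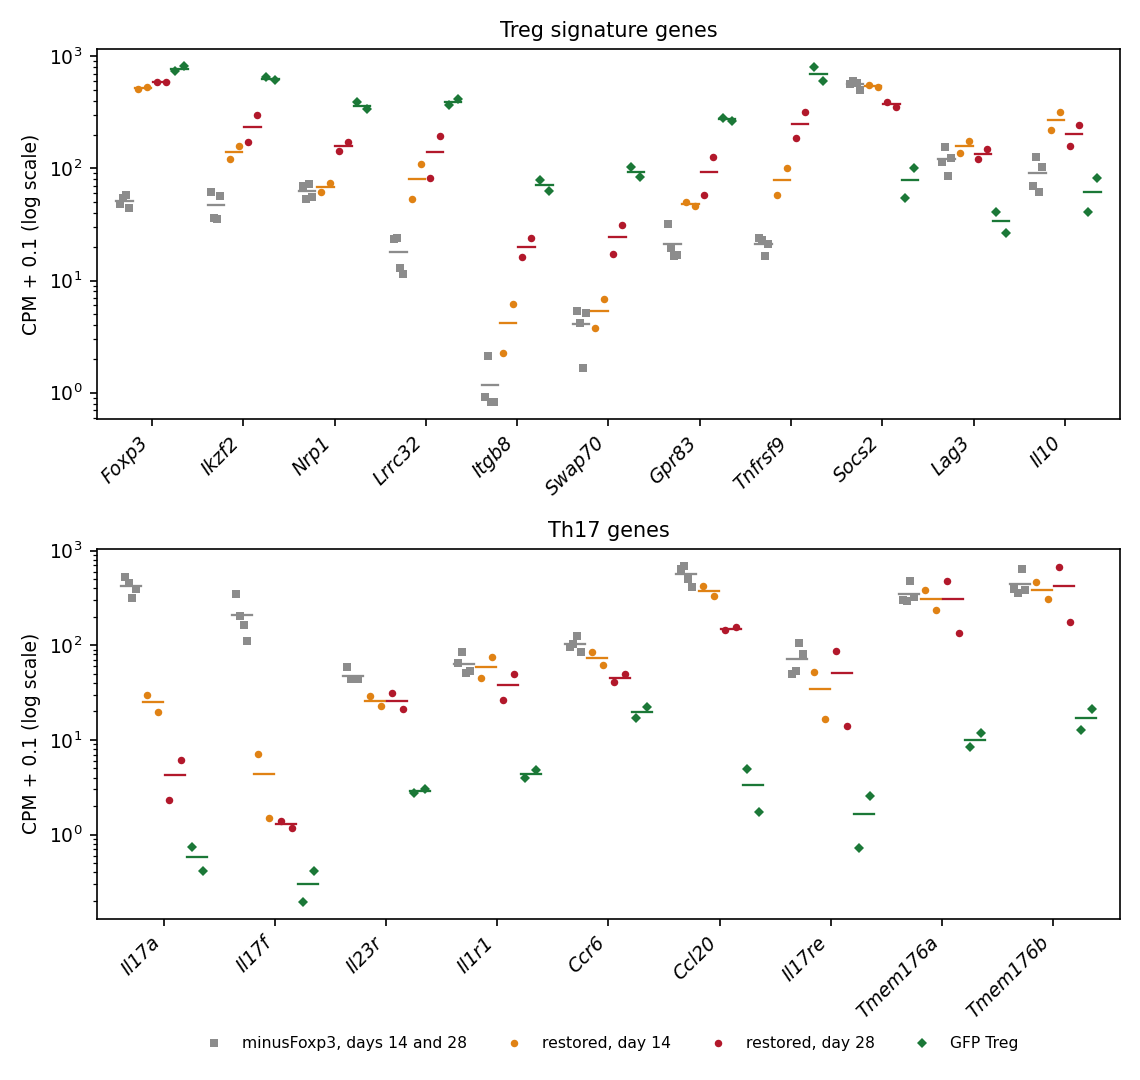
Level of 11 Treg signature genes (top) and Th17 genes (bottom) in each library, as CPM plus 0.1 on a log axis, with horizontal bars at group means. Ccl20 in restored cells (144 to 423 CPM) sits far above GFP Treg cells, whereas Ikzf2 (121 to 299 CPM) sits between minusFoxp3 and GFP Treg cells.

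Because many nuclear receptors bind DNA motifs built on the core AGGTCA, the bases before the start of the Th17 genes are shown for 4 of the 5 that hold this core, those of both IL-17 cytokines, the IL-23 receptor and Ccl20. The sequences are from RefSeq on GRCm38.p6, another build than that of the counts, and run 5′ to 3′ on the gene's strand over the 250 bases before the start. Capitals mark AGGTCA or its reverse complement TGACCT. Il17a lies at chr1:20730655-20730904 on the plus strand, Il17f at chr1:20784271-20784520 on the minus strand, Il23r at chr6:67491856-67492105 on the minus strand and Ccl20 at chr1:83116516-83116765 on the plus strand.
Il17a: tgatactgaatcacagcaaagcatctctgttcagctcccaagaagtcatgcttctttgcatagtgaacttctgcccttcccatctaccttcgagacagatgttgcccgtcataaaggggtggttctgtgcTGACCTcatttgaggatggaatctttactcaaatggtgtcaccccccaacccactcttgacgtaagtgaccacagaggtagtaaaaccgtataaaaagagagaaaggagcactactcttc
Il17f: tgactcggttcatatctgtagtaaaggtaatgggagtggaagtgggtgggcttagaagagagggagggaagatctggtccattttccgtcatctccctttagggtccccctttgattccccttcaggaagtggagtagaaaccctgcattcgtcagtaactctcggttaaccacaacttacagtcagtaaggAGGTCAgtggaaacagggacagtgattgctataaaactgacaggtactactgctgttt
Il23r: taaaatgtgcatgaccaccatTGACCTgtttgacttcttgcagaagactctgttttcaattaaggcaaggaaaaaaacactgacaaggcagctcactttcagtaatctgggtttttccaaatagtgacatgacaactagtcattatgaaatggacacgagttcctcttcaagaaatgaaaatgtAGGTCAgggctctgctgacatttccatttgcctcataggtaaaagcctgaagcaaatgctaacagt
Ccl20: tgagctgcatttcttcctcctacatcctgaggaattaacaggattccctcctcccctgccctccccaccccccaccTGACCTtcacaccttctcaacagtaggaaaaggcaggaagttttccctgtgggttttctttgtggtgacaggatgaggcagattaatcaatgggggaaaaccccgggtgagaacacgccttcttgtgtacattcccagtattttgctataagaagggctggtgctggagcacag

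The first letter of the core lay 120 bases before the start in Il17a, 58 in Il17f, 66 and 229 in Il23r and 174 in Ccl20. Over both strands, AGGTCA was found in 5 of the 9 higher Th17 genes with a promoter in the table, the 4 above and Ccr6. It was found in 13.5% of the 12328 tested genes with a promoter, in 16.7% of the 378 such genes called higher and in 12.6% of the 342 called lower. Among the Treg signature genes called lower, 1 of 9 held it (Nrp1). The forkhead motif TGTTTAC was in 2.8% of all promoters, 2.91% of those called higher and 4.09% of those called lower, and in Swap70 among the 9 Treg genes. The AP-1 motif TGAGTCA was in 3.97%, 5.29% and 3.51%, and in Tnfrsf9 among the 9. A match describes letters in a window and is not evidence of binding. The higher Th17 genes were picked by that chosen list and this contrast, so their share with AGGTCA is a description.

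Genes of the T cell receptor gamma chain locus were also higher in restored than in GFP Treg cells. Trgc1 (chromosome 13, 19398273 to 19401194), a constant segment of the gamma chain, was at 220, 153, 139 and 59.4 CPM in restored and 3.74 and 4.26 CPM in GFP Treg cells, with 437 to 769 CPM in minusFoxp3 cells. The restored libraries lay between the other groups, with a log2 fold change against GFP Treg cells of 5.09 (SE 0.39, adjusted p = 7.46e-07 by edgeR). Of 141 T cell receptor variable segments tested, 3 were higher (Trgv4, Trgv5 and Trgv2) and none lower. That share, 2.13%, was not above the 2.8% of all genes tested that were called higher. Trgv4, at 15.1, 10.9, 12.4 and 3.56 CPM against 0.133 and 0.0624 CPM, was kept. Reads of gamma segments can be shared between near-identical copies, so single segments are uncertain. Scart2, a scavenger receptor gene known from gamma delta T cells, was at 255, 137, 178 and 80.5 CPM against 1.88 and 4.12 CPM. The delta constant segment Trdc was at 1.74, 4.32, 4.92 and 4.80 CPM against 6.21 and 6.74 CPM and was not called. Of 6 listed gamma delta T cell markers it was the 1 tested, since most others were listed under names the annotation lacks. The study describes the sorted cells as TCRb+. Which cells the gamma chain reads came from was not tested.

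The 12 named genes with the largest rise were Mstn, Amph, Daw1, Tmeff2, Foxf2, Ccl20, Osr2, Klrc1, Scart2, Ffar2, Olfr525 and Trgc1. Mstn (chromosome 1, 53100799 to 53107238), which encodes the secreted growth inhibitor myostatin, was at 19.9, 15.8, 4.63 and 6.16 CPM in restored cells and at 0 and 0.0416 CPM in GFP Treg cells. MinusFoxp3 cells had 55.2 to 98.9 CPM, and the log2 fold change of restored cells was 8.77 (SE 0.53, adjusted p = 1.09e-07 by edgeR). Foxf2 and Osr2, transcription factors best known from mesenchyme, were at 9.90 to 24.1 CPM and 6.89 to 20.7 CPM in restored cells and at most 0.374 CPM in GFP Treg cells. Ffar2, a receptor for short-chain fatty acids, was at 14.0 to 27.6 CPM against 0.627 and 0.437 CPM. Daw1 (26.2 to 74.5 CPM), Amph (7.63 to 25.2 CPM) and Olfr525 (5.17 to 9.19 CPM) were at most 0.229 CPM in GFP Treg cells. Of these 12 genes, 11 were kept. Klrc1, an NK cell receptor gene, rested on day 28 replicate 1, with 18.9 CPM there and 0.248 to 1.25 CPM in the other restored libraries. Its call held in only 2 of the 6 fits that leave out 1 library, and not without GFP Treg replicate 1.

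Treg signature genes moved in both directions. Of the 30 tested, 15 were lower and 4 higher in restored cells, beside 2.26% of all genes tested called lower. The list's median log2 fold change was -0.81, against -1.91 in minusFoxp3 cells. Of the lower genes, 9 were kept: Tnfrsf9, Ikzf2, Ikzf4, Lrrc32, Nrp1, Gpr83, Itgb8, Cd83 and Swap70. Genes of the list that were not called included Il2ra, at 424, 525, 408 and 586 CPM against 485 and 639 CPM, and Ctla4, at 936 to 1317 CPM against 835 and 1068 CPM. The log2 fold changes of these 2 genes were -0.21 (SE 0.17) and 0.29 (SE 0.13).

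Ikzf2 and Nrp1, signature genes often used to mark thymus-derived Treg cells, were among those lower, as was Ikzf4. Ikzf2 (chromosome 1, 69570373 to 69726404), which encodes Helios, was at 121, 158, 173 and 299 CPM in restored, 653 and 608 CPM in GFP Treg and 35.2 to 61.6 CPM in minusFoxp3 cells. The 3 groups did not overlap, and the log2 fold change against GFP Treg cells was -1.80 (SE 0.25, adjusted p = 0.000316 by edgeR). Ikzf4, which encodes the related factor Eos, was at 41.8, 58.0, 61.5 and 106 CPM against 161 and 140 CPM. Nrp1, the semaphorin receptor neuropilin-1, was at 61.6, 73.5, 144 and 171 CPM against 388 and 336 CPM, with 53.1 to 72.0 CPM in minusFoxp3 cells. At day 14 Nrp1 lay within or just above the minusFoxp3 range, and at day 28 above it. The day 28 minus day 14 difference was not called in Ikzf2 or Nrp1, with edgeR adjusted p of 0.981 and 0.567.

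Lrrc32 and Itgb8, 2 members of the signature list that act on TGF-beta, were lower. Lrrc32, which encodes GARP, the receptor that holds latent TGF-beta on the Treg surface, was at 53.0, 109, 81.6 and 196 CPM in restored and 369 and 415 CPM in GFP Treg cells. Its log2 fold change was -1.89 (SE 0.37, adjusted p = 0.00477 by edgeR). Itgb8 (chromosome 12, 119121757 to 119202537), the integrin chain that releases active TGF-beta, was at 2.16, 6.05, 16.1 and 23.8 CPM against 78.1 and 63.0 CPM, a log2 fold change of -2.97 (SE 0.44, adjusted p = 0.000516 by edgeR). Both genes were lowest in a day 14 library and highest in day 28 replicate 2, and all restored values lay below the GFP Treg values.

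The signature genes Tnfrsf9, Tnfrsf4 and Tnfrsf18, costimulatory receptors of the TNF family, were lower to different degrees. Tnfrsf9, which encodes 4-1BB, was at 57.7, 100, 185 and 316 CPM in restored and 796 and 600 CPM in GFP Treg cells, a log2 fold change of -2.31 (SE 0.31, adjusted p = 0.00018 by edgeR). Tnfrsf4 (OX40) and Tnfrsf18 (GITR) had log2 fold changes of -0.81 and -0.69, with edgeR adjusted p of 0.0286 and 0.0353. The calls of Tnfrsf4 and Tnfrsf18 were lost in 5 and 6 of the 6 fits that leave out 1 library. Swap70, a regulator of actin and Rac signalling, was at 3.67, 6.72, 17.2 and 31.0 CPM against 103 and 83.9 CPM. Gpr83, an orphan-type G protein-coupled receptor long used as a Treg marker, was at 50.5, 46.1, 58.2 and 126 CPM against 281 and 267 CPM.

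Of the Treg signature genes, 4 were higher in restored than in GFP Treg cells: Socs2, Lag3, Il10 and Capg. Socs2, a feedback inhibitor of cytokine and growth hormone signalling, was at 549, 530, 390 and 353 CPM against 54.9 and 101 CPM, while minusFoxp3 cells had 500 to 604 CPM. Its log2 fold change was 2.52 (SE 0.23, adjusted p = 5.16e-06 by edgeR). Lag3, an inhibitory receptor for MHC class II, was at 138, 176, 120 and 149 CPM against 40.4 and 26.6 CPM, and it was kept. Il10, the suppressive cytokine, was at 220, 321, 158 and 245 CPM against 40.4 and 82.7 CPM, with 61.5 to 126 CPM in minusFoxp3 cells. Restored libraries lay above both other groups for Il10, with a log2 fold change against GFP Treg cells of 1.92 (SE 0.34, adjusted p = 0.00259 by edgeR). Without GFP Treg replicate 1 the calls of Il10 and Capg were lost, with edgeR adjusted p of 0.0804 and 0.115.

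Transcription factors of effector Treg cells were higher or not called. Of 13 tested, Zeb2, Id2, Maf, Ikzf3 and Rora were higher and none was lower (38.5% called, beside 5.05% of all genes tested). Maf, which encodes c-Maf and drives Il10 in many T cells, was at 782, 729, 512 and 499 CPM in restored and 220 and 243 CPM in GFP Treg cells, a log2 fold change of 1.42 (SE 0.23, adjusted p = 0.00121 by edgeR). It was kept. Id2, an inhibitor of E proteins, was at 704, 523, 976 and 380 CPM against 139 and 203 CPM. Without GFP Treg replicate 1, Id2 had an edgeR adjusted p of 0.0722, and Ikzf3 and Rora lost their calls as well. Zeb2, at 4.67 to 12.7 CPM against 3.45 and 1.64 CPM, lost its call without GFP Treg replicate 2 (edgeR adjusted p = 0.135). Prdm1, Irf4, Batf and Gata3, which shape effector Treg cells, had log2 fold changes of 0.24, 0.45, -0.31 and -0.24 and were not called. Of 11 naive and quiescence genes, Id3 and Lef1 were lower (18.2% called) and neither was kept.

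Tissue homing receptors differed in a set of chemokine receptors. Of 25 homing receptors and integrins tested, 9 were higher and 3 lower (48% called, beside 5.05% of all genes tested). Ccr1, Cxcr6, Ccr2, Ccr6 and Ccr4 were among the genes higher and kept, Ccr8 was lower and kept, and Gpr15, Gpr183 and Selplg (higher) and Cxcr5 and Itgae (lower) were called but not kept. Ccr2 (chromosome 9, 123901987 to 123913594), which guides cells to inflamed tissue, was at 792, 836, 895 and 579 CPM in restored, 102 and 190 CPM in GFP Treg and 391 to 622 CPM in minusFoxp3 cells. Its log2 fold change was 2.41 (SE 0.36, adjusted p = 0.00059 by edgeR). Cxcr6 was at 356, 228, 688 and 155 CPM against 16.3 and 26.3 CPM, and Ccr1 at 87.8, 50.5, 37.6 and 30.4 CPM against 1.31 and 2.95 CPM. For these 3 receptors even the lowest restored library lay far above both GFP Treg libraries.

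Ccr8, a receptor of skin and tumour Treg cells, went the other way (chromosome 9, 119921180 to 119923972). It was at 23.1, 25.2, 26.4 and 43.4 CPM in restored, 139 and 107 CPM in GFP Treg and 36.1 to 71.2 CPM in minusFoxp3 cells. Restored cells had the least Ccr8 of the 3 groups, although day 28 replicate 2 overlapped the minusFoxp3 range. Untreated cells differed in the same direction, with 29.6 and 30.1 CPM in the CreERT2 genotype and 44.6 and 52.4 CPM without it. The log2 fold change was -2.08 (SE 0.24, adjusted p = 4.24e-05 by edgeR) against GFP Treg cells and -0.75 (SE 0.21, adjusted p = 0.0497 by edgeR) against minusFoxp3 cells. Cxcr5, the receptor for B cell follicles, was at 24.4, 35.9, 54.1 and 97.4 CPM against 228 and 146 CPM and had a log2 fold change of -1.97 (edgeR adjusted p = 0.00159). Without GFP Treg replicate 1, the edgeR adjusted p of Cxcr5 was 0.07. Itgae, the CD103 integrin that binds epithelium, had a log2 fold change of -0.95 and an edgeR adjusted p of 0.0179, and its call was lost without GFP Treg replicate 2, day 14 replicate 1 or day 28 replicate 1.

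Calls among genes of the other helper lineages were 16.7% of the Th1, 62.5% of the Th2 and tissue-repair and 30% of the follicular helper genes tested, against 5.05% of all genes. Of 12 Th1 genes, 2 were higher and kept (5 higher by DESeq2, and 4 at day 28 alone by edgeR), and 1 of them, the IL-18 receptor gene Il18r1, was at 115, 106, 122 and 66.2 CPM against 16.4 and 19.7 CPM. Tbx21 and Ifng, which define Th1 cells, were not called and peaked in day 28 replicate 1, with 70.8 and 47.0 CPM there. Of 8 Th2 and tissue-repair genes tested, Il4 and Ccr4 were higher and Il1rl1, Ccr8 and Il9r lower. Il1rl1 and Il9r were not kept, and Il9r was called in 0 of the 6 fits that leave out 1 library. Il4 was at 7.67, 6.04, 3.11 and 3.04 CPM against 0.816 and 0.291 CPM and was kept. Of 10 follicular helper genes, Cxcr5, Bcl6 and Btla were lower, and none of the 3 was kept. Of 12 other cytokine and TNF ligand genes tested, Tnfsf8 (CD30 ligand) and Cd40lg were higher and Tnfsf11 (RANKL) lower (25% called). Tnfsf8, the one kept, was at 256, 159, 173 and 130 CPM against 57.2 and 37.9 CPM.

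Cytotoxic and checkpoint genes split. Of 15 cytotoxic genes, Gzmb, Klrd1 and Klrc1 were higher and Prf1 lower (26.7% called, beside 5.05% of all genes tested). Gzmb (chromosome 14, 56496295 to 56499717), the serine protease granzyme B, was at 187, 227, 185 and 246 CPM against 31.1 and 64.0 CPM, a log2 fold change of 2.15 (SE 0.30, adjusted p = 0.000275 by edgeR). Prf1, which encodes the pore protein that granzymes need to enter target cells, was at 2.08, 2.88, 7.33 and 3.43 CPM against 17.4 and 19.7 CPM, a log2 fold change of -2.34 (SE 0.45, adjusted p = 0.00433 by edgeR). Both were kept. Klrd1 had no count in either GFP Treg library and 0.86 CPM on average in restored libraries, which is at least 28.9-fold higher than the limit that 3 counts over the GFP Treg group would give. Its call held in 4 of the 6 fits that leave out 1 library, and not without GFP Treg replicate 1. Of 16 coreceptor and checkpoint genes, Havcr2, Lag3, Cd226 and Cd28 were higher and Cd160, Cd80, Cd27, Btla and Cd96 lower (56.2% called). Havcr2, which encodes the inhibitory receptor TIM-3, was at 64.1, 73.2, 43.4 and 44.2 CPM against 11.4 and 10.7 CPM, and was kept with Lag3.

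Several programmes gave no call by edgeR in this contrast. These were the T cell receptor response (14 genes), AP-1 (12), cell cycle (30), interferon-stimulated (32), heat shock (11), cytosolic ribosomal protein (82) and nuclear oxidative phosphorylation (95) genes. Their median log2 fold changes ran from -0.61 for heat shock genes to 0.29 for ribosomal protein genes. Cd69 was at 402, 487, 474 and 437 CPM against 421 and 400 CPM, and Jun and Junb had log2 fold changes of 0.25 (SE 0.44) and -0.10 (SE 0.36). DESeq2 made no call in these lists either. Of 16 glycolysis genes, Slc16a3 and Slc2a3 were lower, and of 23 sterol and fatty acid synthesis genes, Sqle and Fdft1 were higher. Of 8 Gimap genes, which encode GTPases of lymphocytes, Gimap7 was lower, while DESeq2 called 4 lower and the day 14 contrast 3. None of these 5 calls of edgeR was kept. They were 12.5%, 8.7% and 12.5% of the glycolysis, sterol and Gimap genes tested, beside 5.05% of all genes tested. Of the 14 genes of the IL-2 receptor and STAT5 axis, 14.3% were called. Socs2 was higher and Il2rb, the shared beta chain of the IL-2 and IL-15 receptors, was lower. Il2rb lost its call without GFP Treg replicate 1 (edgeR adjusted p = 0.0618).

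**Figure D3:**
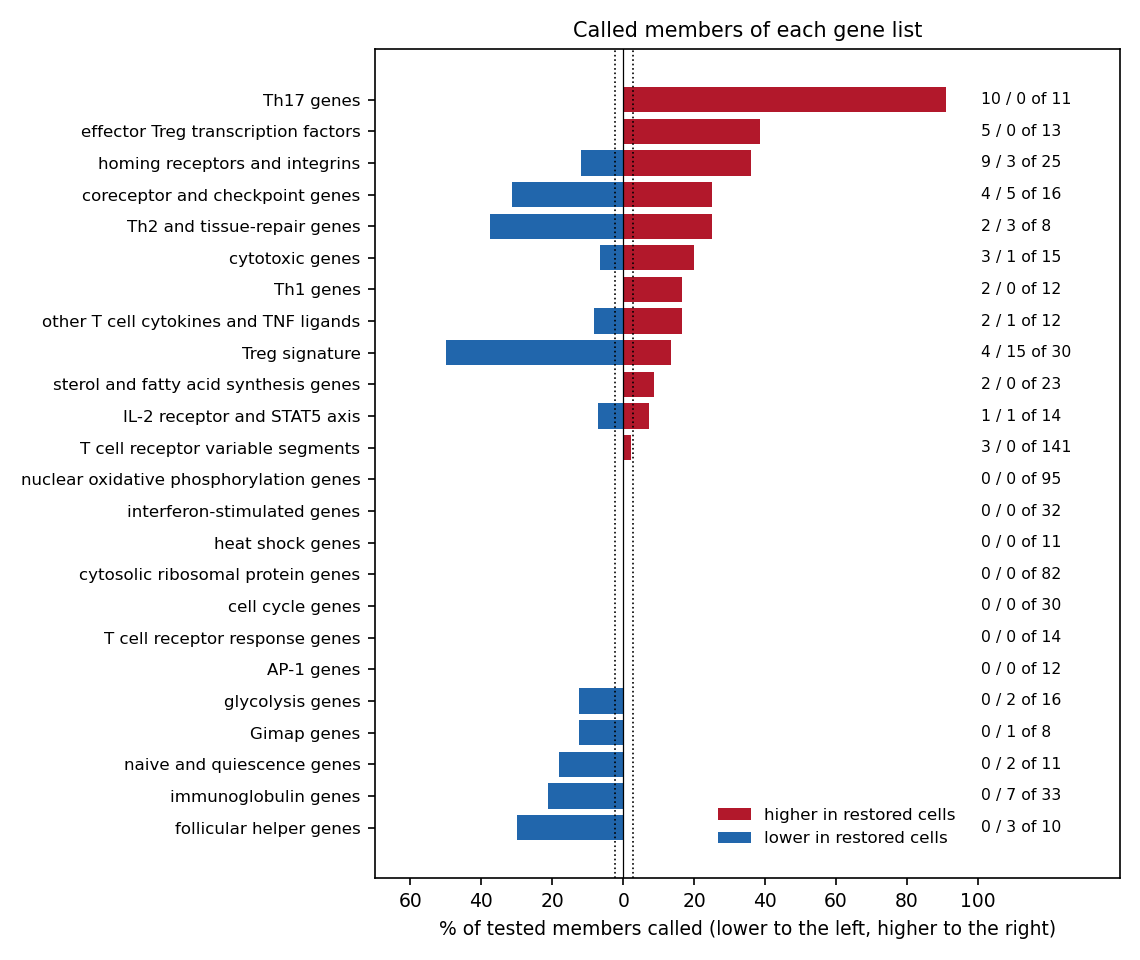
Share of the tested members of each list that were called higher (red, to the right) or lower (blue, to the left) in restored cells, in percent, with the counts higher / lower of tested at the right edge and dotted lines at the shares over all genes tested (2.8% higher, 2.26% lower). Th17 genes reach 10 of 11 higher and Treg signature genes 15 of 30 lower, while AP-1, cell cycle and interferon-stimulated genes show no bar.

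The 12 named genes with the largest fall were Ecel1, Dscam, Glt28d2, Cep112, Reep1, Nid2, Slc7a10, Fhip1a, Slc24a3, Il13ra1, Noxa1 and F13a1. Of these, 3 were kept. Cep112 (chromosome 11, 108316018 to 108751441), which encodes a centrosome protein, was at 0.416, 0.688, 2.81 and 2.19 CPM in restored and 35.5 and 23.0 CPM in GFP Treg cells. Slc7a10, an amino acid transporter gene, was at 0.367, 1.05, 2.54 and 4.26 CPM against 41.2 and 24.8 CPM, and F13a1, the A chain of coagulation factor XIII, at 0.269, 0.191, 3.70 and 4.22 CPM against 13.2 and 9.59 CPM. In each of these 3 genes both day 28 libraries lay above both day 14 libraries. The log2 fold changes were -4.63, -4.40 and -3.57, with edgeR adjusted p of 2.15e-05, 0.0021 and 0.00205. Ecel1, Reep1 and Slc24a3 rested on GFP Treg replicate 1, with 46.9, 12.6 and 39.5 CPM there and 4.37, 1.02 and 6.61 CPM in replicate 2. Without replicate 1 their edgeR adjusted p were 0.462, 0.798 and 0.476. DESeq2 did not call Ecel1 and Noxa1, with adjusted p of 0.273 and 0.171.

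Of 33 immunoglobulin genes tested, 7 were lower (21.2%, beside 2.26% of all genes tested) and none higher by edgeR, and Ighm was kept. DESeq2 called 3 lower and 1 higher. Ighm (chromosome 12, 113382178 to 113386350), the constant region of the IgM heavy chain, was at 1278, 1705, 1564 and 2331 CPM in restored, 3754 and 3902 CPM in GFP Treg and 258 to 367 CPM in minusFoxp3 cells. The groups were ordered without overlap, and the log2 fold change against GFP Treg cells was -1.17 (SE 0.18, adjusted p = 0.000654 by edgeR). The summed level of 8 B cell markers moved with it, at 26.7 to 46.9 CPM in restored, 59.2 to 65.2 CPM in GFP Treg and 20.6 to 25.1 CPM in minusFoxp3 libraries, and 0 of the 8 were called by edgeR. Most of that sum was Cd79b and Cd22, with Cd22 at 2.06 to 6.91 CPM against 16.7 and 14.1 CPM, while Cd79a was at 1.9 to 4.5 CPM. Their part in the immunoglobulin result was not tested. Among macrophage markers Cst3 was called higher (log2 fold change 0.94, edgeR adjusted p = 0.00937), a gene expressed in many cell types, and it lost its call without GFP Treg replicate 1.

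The called genes were placed between GFP Treg and minusFoxp3 cells of the same days. These placements share libraries with the contrast that chose the genes and are given as a description. Replicate 2 of the minusFoxp3 cells on both days had more Siglech and Hspa1a than the other replicate, as described below. What this does to the placements was not tested. Of the 581 higher genes, 408 (70.2%) had a mean CPM between those of GFP Treg and minusFoxp3 cells. The other 173 (29.8%) lay as far from GFP Treg cells as minusFoxp3 cells or farther. Against minusFoxp3 cells themselves, where 4.31% of genes tested were called (2.11% higher and 2.2% lower in restored cells), 143 of the 581 were called nearer to GFP Treg cells, 15 farther from them, and 423 were not called. Of the 469 lower genes, 375 (80%) lay between and 94 (20%) as far or farther, with 110, 5 and 354 in the same classes. The median log2 fold change of the higher genes was 1.89 in restored and 2.17 in minusFoxp3 cells, and that of the lower genes -1.47 and -1.87. In minusFoxp3 cells 2443 genes (11.8%) differed from GFP Treg cells, 1131 higher (5.44%) and 1312 lower (6.31%), with the same 2 GFP Treg libraries and the same number of other libraries.

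The 15 genes farther from GFP Treg cells on the high side were higher in restored cells than in both other groups, and 10 of them, chosen after their values were seen, are plotted. Lgmn (chromosome 12, 102360343 to 102406072), which encodes the lysosomal protease legumain, was at 130, 209, 101 and 168 CPM in restored, 21.8 and 38.9 CPM in GFP Treg and 30.5 to 40.3 CPM in minusFoxp3 cells. Every restored library lay above the libraries of both other groups, which overlapped each other. Its log2 fold change was 2.31 (SE 0.26, adjusted p = 3.36e-05 by edgeR) against GFP Treg cells and 2.16 (SE 0.20) against minusFoxp3 cells. Untreated active cells of the CreERT2 genotype, in which Foxp3 was at 50.7 and 55.6 CPM, had 42.9 and 40.1 CPM of Lgmn.

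Marcks, a membrane-bound actin regulator and substrate of protein kinase C, was at 75.7, 95.0, 67.6 and 92.2 CPM in restored cells, 14.1 and 25.6 CPM in GFP Treg cells and 23.3 to 31.7 CPM in minusFoxp3 cells. Untreated cells of the CreERT2 genotype had 22.3 and 21.1 CPM of Marcks. Gzmb and the long non-coding RNA Miat belonged to the 15 as well, but their lowest restored library did not clear, or barely cleared, the highest minusFoxp3 library (193 CPM for Gzmb, 14.0 CPM for Miat). Gzmb was at 55.3 and 35.2 CPM in untreated cells of the CreERT2 genotype and Il10 at 46.7 and 57.6 CPM, in each case below all restored libraries. Lgmn, Esr1, Marcks, Gzmb and Miat kept their call against GFP Treg cells in all 6 fits that leave out 1 library. The other 5 plotted genes were Il10, Slc1a1, Rapsn, Laptm4b and Hbegf, and they kept it in 5, 1, 2, 4 and 4 fits. At days 3 and 7, whose libraries neither contrast compared, 4 of the 15 genes (26.7%) were called higher in plusFoxp3 cells. Over all genes the share was 0.785%. Lgmn and Esr1 were among the 4. All of these contrasts took the spread of each gene from one fit, so their calls are not independent.

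Esr1 (chromosome 10, 4561593 to 4955614), the estrogen receptor alpha gene, has to be read apart from the others. It was at 17.3, 15.2, 18.1 and 15.5 CPM in restored, 4.69 and 4.20 CPM in GFP Treg and 1.32 to 3.01 CPM in minusFoxp3 cells. Untreated cells of the CreERT2 genotype, with Foxp3 off, already had 22.6 and 17.0 CPM in the active and 26.1 and 17.5 CPM in the resting state. Untreated cells without CreERT2 had 1.96 and 3.00 CPM and 3.21 and 2.93 CPM. The level of Esr1 therefore followed the CreERT2 genotype before any Foxp3 was restored, and CreERT2 contains the ligand-binding part of an estrogen receptor, so whether these reads came from Esr1 or from the transgene cannot be told apart in gene counts.

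**Figure D4:**
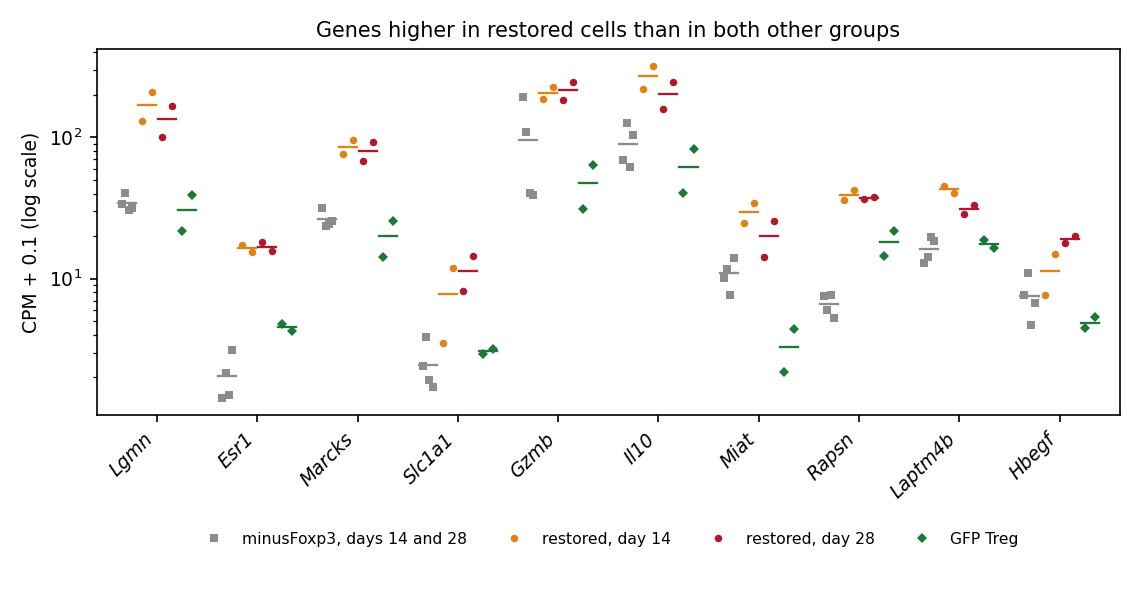
Level of the 10 genes in minusFoxp3, restored day 14, restored day 28 and GFP Treg libraries, as CPM plus 0.1 on a log axis, with bars at group means. Restored libraries of Lgmn (101 to 209 CPM), Esr1 (15.2 to 18.1 CPM) and Marcks (67.6 to 95.0 CPM) lie above all libraries of the other groups, and Esr1 was as high in untreated CreERT2 cells.

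The libraries of days 3 and 7 give an early difference between plusFoxp3 and minusFoxp3 cells. It compares no library of the restored against GFP Treg contrast, but both took the spread of each gene from the same fit. Foxp3, CreERT2 genotype, excision of the cassette and the sort gate differ together between these groups and cannot be told apart, and Esr1, Il17a and Ccr8 already differed between the genotypes at day 0. The groups differed in 271 genes (1.3%), 163 higher (0.785%) and 108 lower (0.52%) in plusFoxp3 cells. Of the 108 genes lower early in plusFoxp3 cells, 45 (41.7%) were still higher in restored than in GFP Treg cells at days 14 and 28, which is 7.75% of the 581 higher genes. Of the 163 genes higher early in plusFoxp3 cells, 44 (27%) were still lower, which is 9.38% of the 469 lower genes. Over all genes tested, 2.8% were higher and 2.26% lower. Moves past GFP Treg cells were fewer: 6 genes higher early were higher than in GFP Treg cells (Crlf3, Lgmn, Ly6a, Rapsn, Snx2 and, by genotype, Esr1) and 1 gene lower early was lower (Ccr8).

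Among genes lower early and still high were Il17a, Il17f, Il4, Thy1, Trgc1, Mstn and Id2. Aqp3, a water and glycerol channel, had an early log2 difference of -1.35 and was still 3.29 above GFP Treg cells on the log2 scale, and Vdr, the vitamin D receptor, had -2.14 and 2.63. Among genes higher early and still low were Lrrc32, Tnfrsf9, Gpr83, Itgae, Cxcr5, Nrn1 and Ighm. Fcmr, the IgM Fc receptor, had an early log2 difference of 3.90 and stood at -3.38 against GFP Treg cells. The early count changed when any single library of day 3 or day 7 was left out. It was highest and lowest without 2 libraries of day 7. Without day 7 minusFoxp3 replicate 2 it was 1985 genes, and 95 of 780 lower genes (12.2%) were still high and 91 of 1205 higher genes (7.55%) still low. Without day 7 plusFoxp3 replicate 1 it was 105 genes, and the shares were 23 of 47 (48.9%) and 19 of 58 (32.8%). Without GFP Treg replicate 1, 27 of the 108 (25%) and 16 of the 163 (9.82%) were still apart.

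Il23r and Il1r1 had no early call, with early log2 differences of -0.02 and 0.01, unlike Il17a (-3.67) and Il17f (-5.46), which were called. Ikzf2, Nrp1 and Itgb8 had early log2 differences of 0.87, 0.40 and 1.56 and were not called early. Untreated plusFoxp3-genotype cells had 29.6 and 43.1 CPM of Ikzf2, and treated plusFoxp3 cells had 95.6 and 52.2 CPM at day 3 and 77.8 and 88.5 CPM at day 7. Its level at days 14 and 28, given above, was higher than in each of these libraries.

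Between day 28 and day 14, 9 genes were called (0.0433%), 2 higher (0.00963%) and 7 lower (0.0337%) at day 28. The 7 lower genes included Il17a, Mstn, Tmeff2 and Glp1r, with log2 fold changes of -2.58, -1.72, -2.36 and -3.64. Each of these 4 was higher in restored than in GFP Treg cells. Glp1r, the receptor for the incretin GLP-1, went from 8.82 and 4.37 CPM to 0.418 and 0.641 CPM, with 0.038 and 0.478 CPM in GFP Treg cells. Nrn1, which encodes the surface protein neuritin, rose from 7.23 and 8.10 CPM to 25.1 and 31.1 CPM, with 97.7 and 81.6 CPM in GFP Treg cells. All 5 genes moved toward the GFP Treg level. The count ran from 0 without day 14 replicate 1 to 20 without day 28 replicate 2, and with only the libraries compared it was 0, with 1175 genes at an unadjusted p under 0.05. It was 71 by DESeq2 and 405 without the filter on low counts. Large differences were among those not called, with log2 fold changes of 4.10 (SE 0.85) in F13a1, 2.21 (SE 0.71) in Swap70 and 1.67 (SE 0.38) in Tnfrsf9, all higher at day 28, so a missing call does not show that the days were alike.

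Each day was also set against GFP Treg cells. Day 14 gave 1011 calls (4.87%), 595 higher (2.86%) and 416 lower (2%). Day 28 gave 417 (2.01%), 338 higher (1.63%) and 79 lower (0.38%). Both days share the GFP Treg libraries, and the difference in these counts was tested only through the contrast between the days. Of the Treg signature genes, 15 were lower at day 14 and 3 at day 28, while Th17 genes were higher in 10 and 9 of 11. Without day 14 replicate 1, 450 genes were called for day 14, and without GFP Treg replicate 1, 160 genes were called for day 28. Fitted on the 6 libraries alone, day 28 gave 89 calls.

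**Figure D5:**
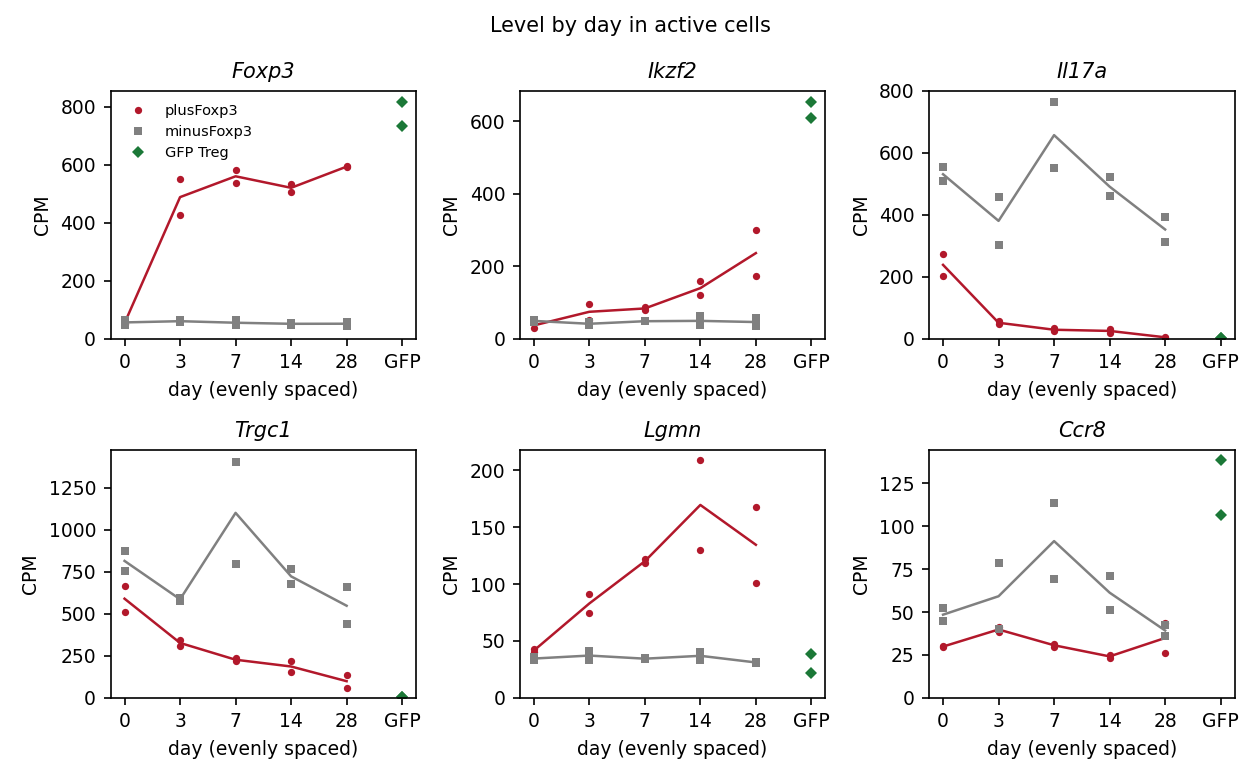
Level in CPM of 6 genes in each active library by day after treatment (days 0, 3, 7, 14 and 28, evenly spaced). PlusFoxp3 cells are red and minusFoxp3 cells grey, with lines through the means of 2 replicates, and GFP Treg cells are green. Foxp3 reaches its level by day 3, Ikzf2 is still at 121 to 299 CPM at days 14 and 28 against 608 and 653 CPM in GFP Treg cells, and Lgmn is above both other groups at days 14 and 28.

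The same contrast in resting cells, which shares no library, gave 43 calls among 20520 genes (0.21%), 22 higher (0.107%) and 21 lower (0.102%). With only the libraries compared in the fit it gave 0 calls by edgeR, with 1396 genes at an unadjusted p under 0.05, and DESeq2 gave 175, so the overlap below rests on the fit over all resting libraries. Over the 19852 genes tested in both states, 15 of the 22 genes higher in resting restored cells (68.2%) were also higher in active restored cells, where 2.66% of genes were, and they are 2.84% of the 529 higher active genes. They included Ccl20, Mstn and Scart2, and also Esr1, which followed the CreERT2 genotype. Ccl20 was at 61.4, 22.7, 32.9 and 7.47 CPM in resting restored and 0.804 and 0.174 CPM in resting GFP Treg cells. Of the 21 lower genes, 14 (66.7%) were also lower in active cells, where 2.28% of genes were, and they are 3.09% of the 453 lower active genes. They included Cep112, Fhip1a, Epcam and Ighm. No gene was called in opposite directions. Without resting GFP Treg replicate 1 the resting calls fell to 8, of which 4 of 5 and 1 of 3 were shared. Without active GFP Treg replicate 1, 13 and 7 genes were shared.

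The difference between the states was tested as an interaction, which called 33 of 20790 genes (0.159%), 26 with a higher (0.125%) and 7 with a lower (0.0337%) restored-minus-GFP value in active cells. Trgc1, at 59.4 to 220 CPM against 3.74 and 4.26 CPM in active cells, was at 20.1, 12.5, 10.7 and 22.9 CPM in resting restored and 27.0 and 40.5 CPM in resting GFP Treg cells. The log2 difference between the states was 6.12 (SE 0.80, adjusted p = 0.000323 by edgeR). Socs2, at 353 to 549 CPM against 54.9 and 101 CPM in active cells, was at 122 to 174 CPM in resting restored and 108 and 113 CPM in resting GFP Treg cells, a log2 difference of 2.11 (SE 0.35, adjusted p = 0.00582 by edgeR). Lgmn had a log2 difference of 2.40 (SE 0.40, adjusted p = 0.00582 by edgeR), with means of 30.2 CPM in resting restored and 31.8 CPM in resting GFP Treg cells. Prr5l, which encodes a protein of the mTORC2 complex, was at 50.4, 45.5, 20.8 and 24.3 CPM against 4.27 and 2.85 CPM in active cells, with a log2 difference of 3.13 between the states. Without active GFP Treg replicate 1, 3 genes were called, and without active day 28 replicate 2, 127.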

How the data were processed

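Gene counts were deposited per library. Per the file headers the authors made these counts of read pairs with featureCounts 2.0.3 and GENCODE vM30, without strand; the submitters' processing notes name Bowtie2, featureCounts, DESeq2 and mm39, while the methods of the study name STAR for alignment. Libraries were made from RNA amplified with SMART-Seq v4. Groups were taken from titles. The 20 degron libraries were not used.

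Genes with a mean count of at least 10 were fitted over the 22 active libraries with TMM factors and the robust quasi-likelihood test of edgeR 4.0.16 in R 4.3.3, one mean per group (11 residual degrees of freedom). Resting and state contrasts used the 22 resting and all 44 libraries. CPM were computed from library totals. Named genes were Foxp3, up to 12 called genes per direction with the largest change (mean count 100 or more, groups not overlapping), and up to 4 called members per list and direction; others were chosen after their values were seen. Members and lists were chosen with earlier results of these data known. Alternatives were RLE factors, no filter, DESeq2 1.42.0, own libraries, a replicate block and leaving out each library. On simulated counts of this contrast (20524 genes, 200 changed), 29% of 2-fold and 62.2% of 4-fold changes were recovered, and 3 of 93 calls were false. The simulated libraries were drawn independently, and the groups differed only in the 200 changed genes, so these rates need not hold for the data. Replicates differed beyond sampling noise, with a chi-square per degree of freedom of at least 23.0. Some genes are not reported here, also where a list's count includes them.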

Additional observations from a re-analysis of the deposited data

Results flagged for a closer look

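In 7 of 87 named genes, 1 of the 4 restored libraries stood apart from the other 3. Chance gives about 1 gene in 20 if the 4 are draws from the same normal distribution. The libraries are of day 14 and day 28, and many of the genes were chosen for a large change, so this rate is only a rough guide. The gap to the nearest library, as a share of the range of the 4, was 0.946 in Klrc1, 0.889 in Il13ra1, 0.881 in Nid2, 0.853 in Xist, 0.849 in Gpr83, 0.837 in Ccr8 and 0.833 in Ifi27l2a. Klrc1 was high in day 28 replicate 1 (18.9 CPM against 0.248 to 1.25 CPM). Day 28 replicate 2 stood apart, on the side of the GFP Treg libraries, in Il13ra1 (1.80 CPM against 0.458 to 0.608 CPM), Nid2 (2.81 CPM against 0.0735 to 0.399 CPM), Gpr83 (126 CPM against 46.1 to 58.2 CPM) and Ccr8 (43.4 CPM against 23.1 to 26.4 CPM). Xist was highest in day 14 replicate 2 (343 CPM) and Ifi27l2a lowest in day 28 replicate 1 (442 CPM).

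The active minus resting difference of the restored against GFP Treg contrast was 6.12 on the log2 scale for Trgc1 and 2.11 for Socs2, each past the threshold in the test of the difference itself.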

How the results depend on the processing

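With 2 libraries a group, GFP Treg replicate 1 limits the restored against GFP Treg contrast most. Leaving out 1 library gave 338 to 1111 calls there, 450 to 700 for day 14, 160 to 515 for day 28, 0 to 20 between the days, 1435 to 2157 for minusFoxp3 against GFP Treg cells, 475 to 764 for restored against minusFoxp3 cells, 105 to 1985 for the early difference, 8 to 29 in resting cells and 3 to 127 for the difference between the states. Without the filter on low counts the calls, in this order but without minusFoxp3 against GFP Treg cells, were 2115, 2009, 1217, 405, 1994, 1414, 560 and 686. DESeq2 gave 1600, 1582, 819, 71, 1646, 861, 175 and 213. With the libraries of a contrast alone, day 28 gave 89 calls, the days 0, the early difference 78, resting cells 0 and the difference between the states 3 (unadjusted p under 0.05 in 1175 genes between the days and 1396 in resting cells). Replicate numbers are shared across groups. Same-numbered libraries of the day 14 restored, day 28 restored and GFP Treg groups deviated together only weakly (r 0.0188 to 0.12). The minusFoxp3 groups were not included, and whether same-numbered libraries share a batch or handling was not tested. A fit with the replicate number as a block gave 1174 calls, 622 higher and 552 lower, in the restored against GFP Treg contrast, and 58 for the difference between the states. RLE factors gave 1048 calls in the first of these. A total of 939 of the 1050 genes, 536 higher and 403 lower, were called by edgeR with TMM and with RLE factors, without the filter, with the block and by DESeq2. For single named genes, 101 of the repeats lost the call, 3 gained one and 853 left the call as it was. None reversed the direction of a gene called in either fit. Genes not called could change sign, as Junb did, with log2 fold changes of -0.43 to 0.37 over the fits that leave out 1 library. Early counts and overlaps without single libraries were added after seeing the data.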

Other observations

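Siglech, a plasmacytoid dendritic cell marker, was at 51.3 and 68.9 CPM in minusFoxp3 replicate 2 of days 14 and 28 and at 2.41 and 5.05 CPM in replicate 1. The 6 restored and GFP Treg libraries had 0.196 to 0.456 CPM. Hspa1a, a stress-induced chaperone gene, ranged from 12.1 to 511 CPM among restored libraries and was at 598 and 25.6 CPM in the GFP Treg libraries, and at 652 and 798 CPM in the same minusFoxp3 replicate 2 libraries against 124 and 0.251 CPM in replicate 1. Of the 5 genes lower in restored cells than in both other groups, among them Ccr8, Slc25a13, a gene chosen after its values were seen that encodes a mitochondrial aspartate-glutamate carrier, was at 7.40, 4.99, 3.61 and 5.48 CPM in restored, 11.9 and 11.5 CPM in GFP Treg and 6.96 to 12.4 CPM in minusFoxp3 cells. Its call against GFP Treg cells was lost without GFP Treg replicate 1.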
